A study of Mus musculus with 6 samples.

Results

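Heat shock and endoplasmic reticulum (ER) chaperone genes were examined in mouse ovary as a set of 10 named genes, which were taken from the gene symbols of a count table with 51826 Ensembl gene IDs. Each symbol matched 1 row, and all 10 genes passed the filter on low counts that left 19027 genes for testing. The genes comprise 6 cytosolic members, Hspa1a, Hspa1b, Hspa8, Hsph1, Hsp90aa1 and Dnajb1, and 4 members of the ER stress response, Hspa5, Hsp90b1, Pdia4 and Ddit3. Bulk RNA sequencing covered 6 libraries in 3 groups of 2, all from ovaries of ICR mice, an outbred stock: a model of ovarian hyperstimulation syndrome (OHSS) treated with nintedanib (bibf1120), the OHSS model without the drug, and a group named COH that carries neither the model label nor the agent label. COH is not spelled out in the labels, and the labels give neither the age of the mice nor the hormones used nor the dose and timing of the drug. Nintedanib inhibits the kinases of the vascular endothelial, platelet-derived and fibroblast growth factor receptors. The labels do not say whether a group's 2 libraries are from separate mice, so the p-values speak only for how far these libraries spread, and that spread may be technical.

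Chaperones of the HSP70 and HSP90 families bind unfolded protein and use ATP to help it fold. When unfolded protein builds up in the cytosol, heat shock factors, HSF1 above all, are released from chaperones and switch on genes such as Hspa1a, Hsph1 and Dnajb1. In the ER, loss of free BiP, the product of Hspa5, activates the sensors IRE1, PERK and ATF6. Their downstream factors XBP1, ATF4 and ATF6 raise ER chaperones and, under lasting stress, Ddit3. Steroid-producing and protein-secreting cells of the ovary rely on this machinery, and heat shock genes are also known to respond to the handling of tissue.

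Promoter sequences are shown for the 2 inducible HSP70 genes, which had the widest range of levels, and for the 2 most abundant ER chaperones. They are RefSeq windows on GRCm38.p6 that run from 250 bases before to 50 bases after the gene start, and 8 of the 10 members have such a window. In the first pair of sequences capitals mark GAANNTTC, which is a pair of inverted heat shock units, and in the second pair the ER stress element, CCAAT and CCACG with any 9 bases between them. The second stretch in capitals of Hsp90b1 is this element on the other strand.
Hspa1a, chr17:34972107-34972406, minus strand: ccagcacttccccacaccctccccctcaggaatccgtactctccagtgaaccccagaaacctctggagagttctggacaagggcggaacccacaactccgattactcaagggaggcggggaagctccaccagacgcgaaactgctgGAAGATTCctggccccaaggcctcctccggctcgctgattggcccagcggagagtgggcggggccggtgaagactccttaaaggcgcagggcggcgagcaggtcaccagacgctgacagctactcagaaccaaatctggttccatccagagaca
Hspa1b, chr17:34959189-34959488, minus strand: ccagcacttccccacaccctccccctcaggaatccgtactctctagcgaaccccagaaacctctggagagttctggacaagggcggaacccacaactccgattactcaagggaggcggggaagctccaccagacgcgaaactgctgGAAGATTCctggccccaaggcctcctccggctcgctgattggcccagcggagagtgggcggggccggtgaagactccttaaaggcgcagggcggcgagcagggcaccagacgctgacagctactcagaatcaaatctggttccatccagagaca
Hspa5, chr2:34771840-34772139, plus strand: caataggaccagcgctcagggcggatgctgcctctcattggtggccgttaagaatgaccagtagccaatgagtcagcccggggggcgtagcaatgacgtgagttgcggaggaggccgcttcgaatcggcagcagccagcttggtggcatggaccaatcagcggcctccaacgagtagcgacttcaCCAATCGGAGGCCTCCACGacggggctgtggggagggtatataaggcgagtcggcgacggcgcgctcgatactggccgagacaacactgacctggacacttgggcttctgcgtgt
Hsp90b1, chr10:86705395-86705694, minus strand: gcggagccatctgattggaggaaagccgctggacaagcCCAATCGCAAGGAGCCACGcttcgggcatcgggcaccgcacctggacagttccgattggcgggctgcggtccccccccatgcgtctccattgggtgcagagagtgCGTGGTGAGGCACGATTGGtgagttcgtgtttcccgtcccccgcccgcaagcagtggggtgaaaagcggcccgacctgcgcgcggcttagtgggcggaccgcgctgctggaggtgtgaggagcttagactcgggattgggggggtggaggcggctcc
The windows of Hspa1a and Hspa1b shared 296 of 300 bases. Their coding sequences in GENCODE M21 shared 1918 of 1926 aligned bases (99.6%), so most reads from either gene could have come from the other. Since no source used here states how such reads were assigned, the split between these 2 genes is uncertain, while their sum is less so. Hspa1a took 35.0 and 41.0% of their joint counts with nintedanib, 36.1 and 36.2% in OHSS and 37.0 and 37.3% in COH, a narrow range in which the second nintedanib library was the highest.

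Motifs were searched as exact letters on both strands in all 32851 RefSeq windows, so near matches were not counted. The ER stress element had 1 match in the Hspa5 window, starting 65 bases before the gene start, and 2 matches in the Hsp90b1 window, against a share of 0.119% of all windows with at least 1. The windows of Pdia4 and Ddit3, the other ER members, had no match. The full heat shock element has 3 units, GAA and TTC in turn with any 2 bases between neighbours. It stood in 0.603% of all windows and, among the members, in both windows of Hsph1. Those 2 windows overlap and hold the same match, which lies after the gene start in either. The shorter pair of units, GAANNTTC or TTCNNGAA, lies inside that element, was added after the windows had been seen, and stood in 15.1% of windows, so its match in Hspa1a, Hspa1b and Hsph1 is common by letters alone. The ATF4 element TGATGCAAT, present in 0.192% of windows, had no match in any member's window, and no match in a window of this length leaves other places unsearched.

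Total counts were 28498435 to 34716751 per library, and the ovarian markers fixed for granulosa, theca and luteal cells and for oocytes were all detected. Levels are given as CPM, counts relative to the library's total, scaled with TMM factors. The 6 granulosa markers summed to 4569 and 4319 CPM with nintedanib, 2936 and 2871 CPM in OHSS and 2649 and 2695 CPM in COH. Inha held most of each sum, and Inha, Inhba and Cyp19a1 were highest in both nintedanib libraries. Fshr stood out only in the second, at 53.5 CPM. Foxl2 did not follow, at 299 and 261 CPM with nintedanib, 240 and 236 CPM in OHSS and 281 and 247 CPM in COH. Amh had 93.5 and 110 CPM with nintedanib, against 178 and 121 CPM in COH. Markers of plasma and B cells, whose secretory members are rich in ER chaperones, summed to 3.13 to 8.26 CPM over 5 genes in the 6 libraries, and markers of oviduct epithelium to 4.69 to 8.41 CPM over 4 genes. Bulk samples do not tell fewer cells of a type from less RNA per cell, and this holds for every level that follows.

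Per length, Hspa8 had the highest level of the 10 genes. This gene encodes HSC70, the HSP70 that cells make at all times. CPM per kilobase of annotated exon (CPM per kb) averaged 315 ± 70.4 for Hspa8, 195 ± 15.6 for Hsp90b1, 188 ± 59.8 for Hspa5 and 119 ± 40.2 for Pdia4 (SD, n = 6 libraries). Hsp90aa1 followed with 86.5 ± 21.0 CPM per kb, Hspa1b with 44.8 ± 35.8, Hspa1a with 26.5 ± 24.3, Dnajb1 with 23.9 ± 3.96, Hsph1 with 22.2 ± 6.19 and Ddit3 with 13.3 ± 2.62 CPM per kb. Hspa8 stood above Hsp90b1 in 6 of 6 libraries. Hsp90b1 stood above Hspa5 in 4 of 6 and Hspa1a above Dnajb1 in 2 of 6, so these neighbours were not ordered beyond their spread. The lengths join all exons annotated to a gene, and a long rarely used exon lowers a value.

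**Figure D1:**
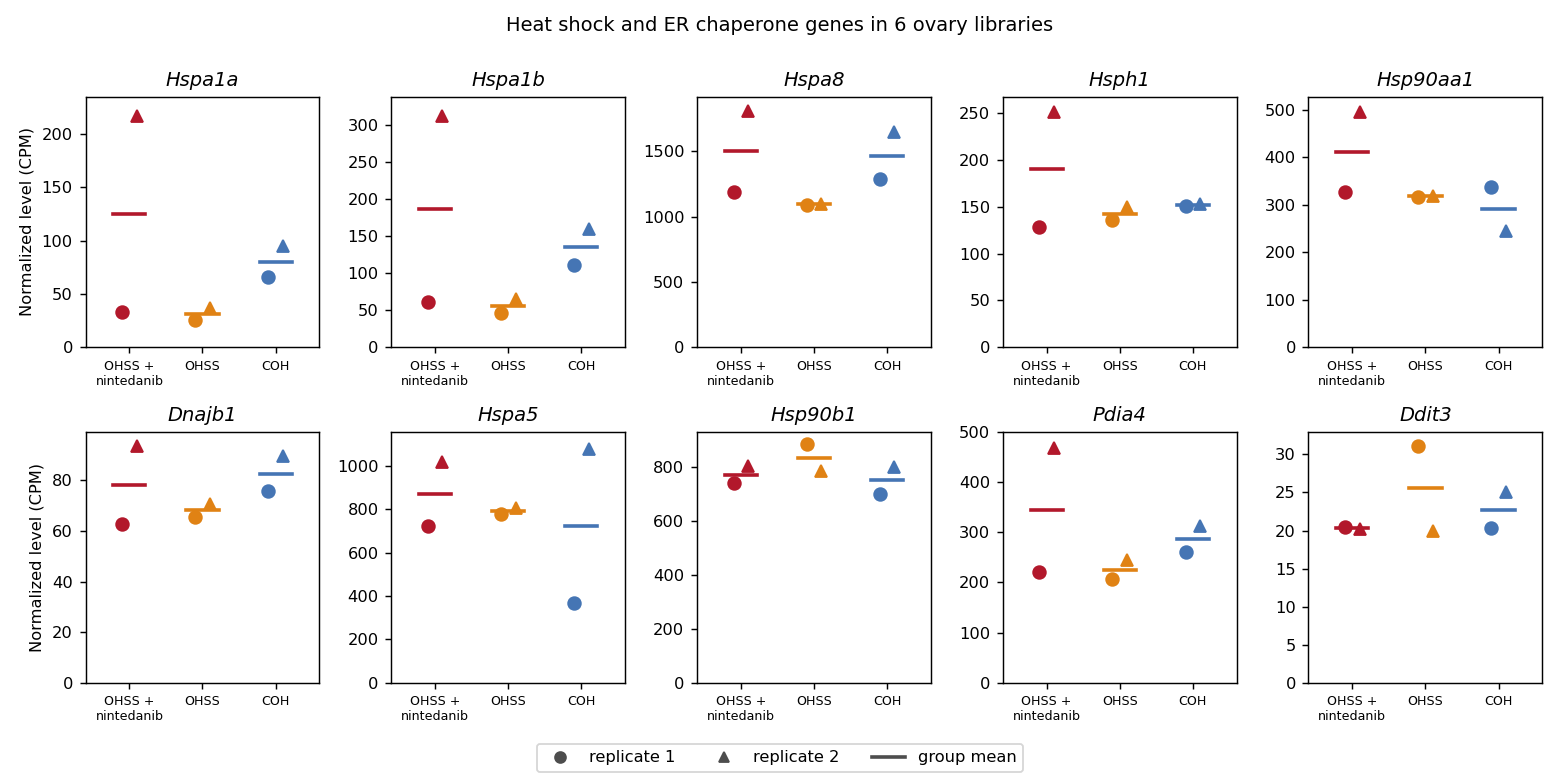
Normalized level (CPM, y axis, linear from 0) of the 10 genes in the 3 groups of 2 libraries, with a circle for replicate 1, a triangle for replicate 2 and a line for the group mean. The second nintedanib library is the highest of the 6 libraries for all 6 cytosolic members and for Pdia4, and the first COH library is the lowest for Hspa5 at 366 CPM.

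OHSS against COH asks which of these genes differ in the syndrome model. The inducible HSP70 genes had the largest differences, with means in OHSS 0.389 times those in COH for Hspa1a and 0.407 times for Hspa1b, and 5 of the 6 cytosolic members had lower means in OHSS, while 3 of the 4 ER members had higher means. In all 4 of 10 members had a fold change above 0, against 49.6% of all genes tested. None of the 10 genes was called by edgeR's quasi-likelihood test at a Benjamini-Hochberg adjusted p below 0.05, where 0.0105% of all genes tested were called. At an unadjusted p under 0.05 edgeR had 0 members, against 8.82% of all genes. With only OHSS and COH fitted it had 2, where 1864 of 18473 genes had such a p. DESeq2 called 0 members, against 1.89% of all genes, as did limma voom, which called none of any kind. In 6 of 10 members both OHSS libraries lay below both COH libraries, against 22.9% of all genes, and in 0 of 10 both lay above, against 21.2%. The median log2 fold change was -0.19 over the 10 members and -0.0030 over all genes tested, and the members' median was -0.42 without COH replicate 1 and -0.12 without COH replicate 2.

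Hspa1a (ENSMUSG00000091971, chromosome 17), an HSP70 made on heat or toxic stress, had 25.8 and 36.7 CPM in OHSS, against 65.6 and 94.9 CPM in COH. Hspa1b (ENSMUSG00000090877, chromosome 17), its near-identical neighbour, had 45.7 and 64.6 CPM in OHSS, against 112 and 159 CPM in COH. For both genes the 2 OHSS libraries were below the 2 COH libraries, with no overlap. The log2 fold change was -1.36 (SE 0.829, edgeR adjusted p = 0.677) for Hspa1a and -1.30 (SE 0.733, edgeR adjusted p = 0.653) for Hspa1b. These standard errors use a spread shared with the nintedanib pair. With only OHSS and COH fitted they were 0.269 and 0.259, with unadjusted edgeR p of 0.00549 and 0.00576 and an adjusted p of 0.420 for both. The sum of both genes was 71.5 and 101 CPM in OHSS, against 177 and 254 CPM in COH.

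Hspa8 (ENSMUSG00000015656, chromosome 9) had 1086 and 1099.9 CPM in OHSS, against 1289 and 1646 CPM in COH, again without overlap. The fold change of Hspa8 was -0.42 on the log2 scale (SE 0.236, edgeR adjusted p = 0.647). Dnajb1 (ENSMUSG00000005483, chromosome 8), an HSP40 that hands unfolded protein to HSP70, had 65.7 and 70.6 CPM in OHSS, against 75.9 and 89.6 CPM in COH. Hsph1 (ENSMUSG00000029657, chromosome 5), an HSP110 that exchanges the nucleotide of HSP70, had 136 and 149 CPM in OHSS, against 151 and 153 CPM in COH. The 2 co-chaperones differed by log2 values of -0.28 (SE 0.212) and -0.09 (SE 0.307), less than those of the HSP70 genes. Hsp90aa1 (ENSMUSG00000021270, chromosome 12), the stress-responsive cytosolic HSP90, had 317 and 319 CPM in OHSS, against 337 and 244 CPM in COH. The OHSS values fell between the 2 COH values, and the log2 fold change was 0.13 (SE 0.245).

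Hspa5 (ENSMUSG00000026864, chromosome 2), which encodes the ER HSP70 BiP, had 779 and 807 CPM in OHSS, against 366 and 1077 CPM in COH. The 2 COH libraries differed by more than any other pair of libraries of a group did for this gene, and both OHSS libraries lay between them. The fitted log2 fold change of 0.14 (SE 0.496) was -0.44 without COH replicate 1 and 1.12 without COH replicate 2. Hsp90b1 (ENSMUSG00000020048, chromosome 10), the ER HSP90 known as GRP94, had 885 and 785 CPM in OHSS, against 701 and 802 CPM in COH, with a log2 fold change of 0.15 (SE 0.129). Pdia4 (ENSMUSG00000025823, chromosome 6), a disulfide isomerase of the ER, had 208 and 244 CPM in OHSS, against 261 and 312 CPM in COH, with a log2 fold change of -0.34 (SE 0.354). Of the 4 ER genes only Pdia4 had groups that did not overlap. Ddit3 (ENSMUSG00000025408, chromosome 10), which encodes the stress factor CHOP, had 31.1 and 20.0 CPM in OHSS, against 20.3 and 25.1 CPM in COH. Its log2 fold change of 0.17 (SE 0.242) was -0.17 without OHSS replicate 1, the library with the highest value. Exons of Ddit3 share 68 bases with Mars on the other strand and those of Hsp90b1 share 415 bases with 1810014B01Rik on the other strand, and without a stated use of strand their reads cannot be told apart there.

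**Figure D2:**
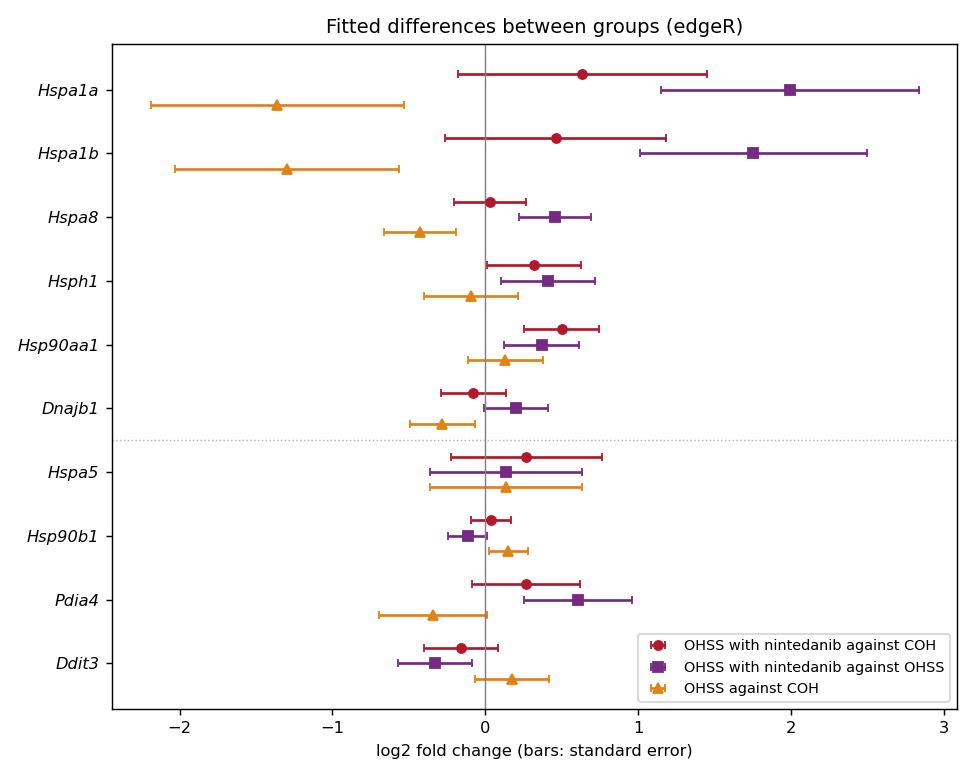
Fitted log2 fold change (x axis) of each gene in the 3 comparisons, with bars of 1 standard error from edgeR and a dotted line between cytosolic and ER members. Hspa1a and Hspa1b show the widest values, 1.995 and 1.76 for OHSS with nintedanib against OHSS and -1.36 and -1.30 for OHSS against COH, and none of the values passed the adjusted threshold.

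OHSS with nintedanib against OHSS asks what differed when the drug had been given to the model. All 6 cytosolic members had higher means with nintedanib, led by Hspa1a and Hspa1b, and 2 of the 4 ER members did, so that 8 of 10 had a fold change above 0, against 51.5% of all genes tested. These means came from 1 of the 2 nintedanib libraries for most genes, and none of the 10 genes was called by edgeR, where 0.00526% of all genes tested were. At an unadjusted p under 0.05 edgeR had 0 members, against 7.42% of all genes. With no filter it had 2, where 1681 of 31645 genes had such a p. DESeq2 had 2, Hspa1a and Hspa1b, where 1694 of 19027 genes had such a p. After adjustment DESeq2 called 0 members, against 1.17% of all genes. Limma voom called 0. In 2 of 10 members, Hspa8 and Hsp90aa1, both nintedanib libraries lay above both OHSS libraries, against 19.2% of all genes, and in 0 of 10 both lay below, against 16.9%. The median log2 fold change was 0.39 over the members, against 0.010 over all genes tested, and was -0.07 without nintedanib replicate 2 and 0.68 without nintedanib replicate 1.

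Hspa1a had 32.7 and 216 CPM with nintedanib, against 25.8 and 36.7 CPM in OHSS. The first nintedanib library lay within the OHSS range, and the second was the highest of all 6 libraries. The log2 fold change was 1.995 (SE 0.844, edgeR adjusted p = 0.682), or 0.07 without nintedanib replicate 2. Hspa1b had 60.8 and 312 CPM with nintedanib, against 45.7 and 64.6 CPM in OHSS. The log2 value of Hspa1b was 1.76 (SE 0.742, edgeR adjusted p = 0.682), or 0.14 without nintedanib replicate 2. Without nintedanib replicate 1 the values of the 2 genes were 2.79 and 2.50, with edgeR adjusted p of 0.0975 and 0.109, and the 1 nintedanib library left is then assumed to vary like the other groups. Limma voom gave 1.46 and 1.34, and the fit with the replicate number as a block 1.60 and 1.44.

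Hspa8 had 1192 and 1808 CPM with nintedanib, against 1086 and 1099.9 CPM in OHSS, which gave 0.46 on the log2 scale (SE 0.236, edgeR adjusted p = 0.713). Hsp90aa1 had 328 and 494 CPM with nintedanib, against 317 and 319 CPM in OHSS, which gave 0.37 on the log2 scale (SE 0.245). For these 2 genes the first nintedanib library stood just above the OHSS libraries and the second far above. Hsph1 had 128 and 251 CPM with nintedanib, against 136 and 149 CPM in OHSS. Dnajb1 had 63.0 and 93.8 CPM with nintedanib, against 65.7 and 70.6 CPM in OHSS. In both co-chaperones the nintedanib libraries stood on either side of the OHSS libraries. Their log2 fold changes of 0.41 (SE 0.307) and 0.20 (SE 0.212) were -0.15 and -0.11 without nintedanib replicate 2.

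Among the ER members Pdia4 had the largest difference, with 220.4 and 468 CPM with nintedanib, against 208 and 244 CPM in OHSS. The fitted log2 value was 0.61 (SE 0.355, edgeR adjusted p = 0.741), or -0.034 without nintedanib replicate 2. Hspa5 had 721 and 1019 CPM with nintedanib, against 779 and 807 CPM in OHSS, and its log2 fold change of 0.13 (SE 0.496) was -0.14 without nintedanib replicate 2. Hsp90b1 had 739 and 803 CPM with nintedanib, against 885 and 785 CPM in OHSS, which gave -0.11 on the log2 scale (SE 0.129). Ddit3 had 20.5 and 20.2 CPM with nintedanib, against 31.1 and 20.0 CPM in OHSS, which gave -0.33 on the log2 scale (SE 0.243), or 0.0065 without OHSS replicate 1. Ddit3 was thus level in the nintedanib pair, in which Hspa1a differed 6.60 times.

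OHSS with nintedanib against COH sets the treated model beside the group without either label. The 3 comparisons share libraries in pairs, so their values are not independent of each other. For none of the 10 members did the groups separate, against 45% of all genes: 0 of 10 lay wholly above, against 22.3% of all genes, and 0 of 10 wholly below, against 22.7%. Of the 10 members 8 had a fold change above 0, against 49.9% of all genes. None was called by edgeR, where 0.0263% of all genes were (0.021% as higher and 0.00526% as lower), nor by DESeq2, where 2.36% were, or limma voom, and 0 members had an unadjusted p under 0.05 by edgeR, against 9.7% of all genes. That count was also 0 with only these 2 groups fitted, where 1967 of 18448 genes had such a p. The median log2 fold change was 0.27 over the members and -0.00099 over all genes tested, and over the members it was -0.27 without nintedanib replicate 2, 0.60 without nintedanib replicate 1, 0.04 without COH replicate 1 and 0.08 by limma voom.

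For Hspa1a, Hspa1b, Hspa8, Hsph1, Dnajb1 and Pdia4 the COH libraries lay between the low first and the high second nintedanib library. The means of Hspa1a were 125 ± 129.8 CPM with nintedanib and 80.3 ± 20.7 CPM in COH (SD, n = 2 each), which gave 0.63 on the log2 scale (SE 0.815, edgeR adjusted p = 0.820). Without nintedanib replicate 2 it was -1.29, and without nintedanib replicate 1 it was 1.43. Hspa1b behaved alike, at 0.46 (SE 0.722) with all libraries, -1.16 without nintedanib replicate 2 and 1.20 without nintedanib replicate 1. Limma voom gave 0.11 for Hspa1a and 0.04 for Hspa1b, and the fit with the replicate block 0.24 and 0.15. Hsp90aa1 averaged 411 ± 118 CPM with nintedanib and 291 ± 65.7 CPM in COH (SD, n = 2 each). Its log2 fold change was 0.50 (SE 0.246, edgeR adjusted p = 0.555), and it stayed positive, from 0.17 to 0.76, with each library left out in turn. Ddit3 averaged 20.3 ± 0.168 CPM with nintedanib and 22.7 ± 3.38 CPM in COH, which gave -0.16 on the log2 scale (SE 0.243).

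**Figure D3:**
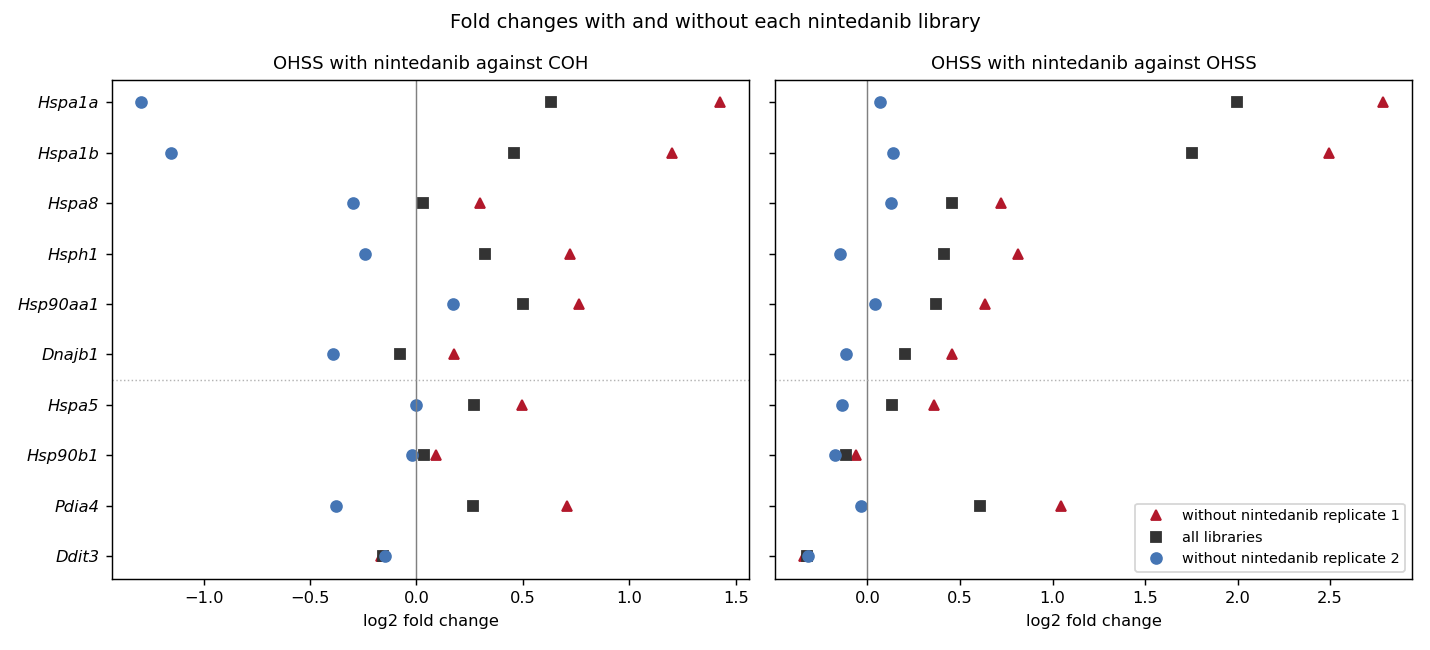
Log2 fold change (x axis) of each gene for OHSS with nintedanib against COH (left) and against OHSS (right), with all libraries (squares), without nintedanib replicate 1 (triangles) and without nintedanib replicate 2 (circles). Without replicate 2, 9 of 10 genes fall below 0 against COH and Hspa1a moves to -1.29, while against OHSS Hspa1a moves to 0.07.

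The gap between the 2 nintedanib libraries was the main feature of the heat shock genes in this series. The second library stood above the first in all 6 cytosolic members, by 2.72 on the log2 scale (prior count 2) for Hspa1a, 2.36 for Hspa1b, 0.97 for Hsph1, 0.60 for Hspa8, 0.59 for Hsp90aa1 and 0.58 for Dnajb1. Of 12303 genes with a mean of at least 5 CPM, 0.894% had a gap of at least the size of that of Hspa1a within this group and 1.14% one of at least that of Hspa1b, while the median gap, up or down, was 0.19. For Hspa8, Hsp90aa1 and Dnajb1 13.9 to 15% of genes had a gap as large. The second library was also the higher for Hspa1a in OHSS and in COH, by smaller log2 values of 0.50 and 0.53. The second nintedanib library was the highest of the 6 for 6 of 6 cytosolic members, against 4193 of all 19027 genes tested. Several of these members vary together, so they are not 6 separate observations.

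ER members did not share this gap evenly. Pdia4 differed by 1.09 on the log2 scale between the nintedanib libraries and Hspa5 by 0.50, while Hsp90b1 differed by 0.12 and Ddit3 by -0.02. Of the 12303 genes, 5.49% had a gap at least as large as that of Pdia4 and 18.2% one as large as that of Hspa5. For Hsp90b1 and Ddit3 the shares were 66.3 and 95.2%. Over the 6 libraries Pdia4 followed the inducible HSP70 genes, with a Pearson r of 0.98 with Hspa1a, against 0.41 with Hspa5 and 0.0014 with Hsp90b1, both ER chaperones. These correlations are descriptions over 6 libraries that share scaling and in which 1 library dominates the range. In the OHSS pair the largest gap was that of Ddit3, 0.64 higher in replicate 1, and in the COH pair that of Hspa5, 1.56 higher in replicate 2, a size reached by 1.23% of the 12303 genes there.

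**Figure D4:**
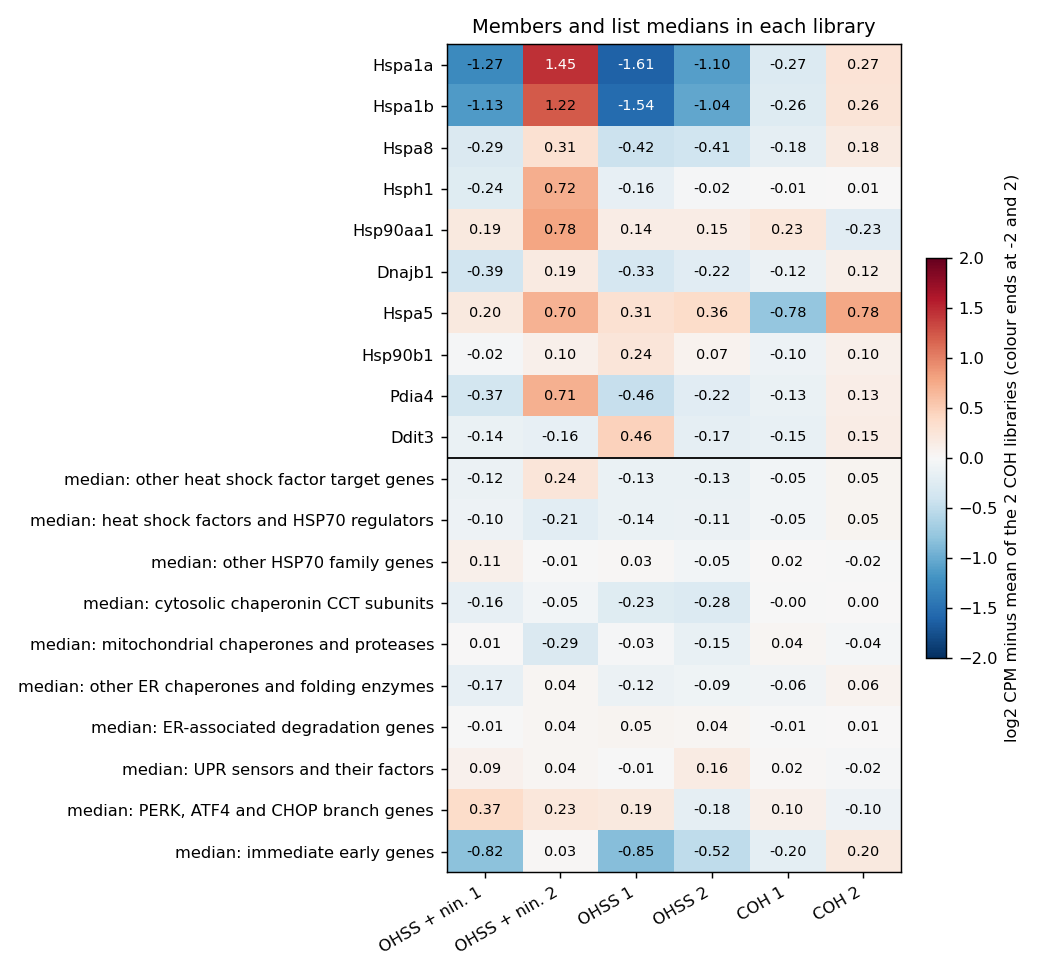
Difference of log2 CPM (prior count 2) from the mean of the 2 COH libraries for the 10 genes, above the line, and for the median of each of 10 other gene lists, below it, in each of the 6 libraries (colour scale from -2 to 2). The second nintedanib library stands out for Hspa1a at 1.45 and Hspa1b at 1.22, against -1.61 and -1.54 in the first OHSS library, while list medians other than that of the immediate early genes stay between -0.29 and 0.37.

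Other genes of the heat shock pathway were taken from a list of 15 chaperones and co-chaperones that heat shock factors are known to induce. In the second nintedanib library 10 of the 15 reached their highest level, against 4193 of all 19027 genes tested. Among them was Hspb1, a small heat shock protein, at 27.6 and 77.2 CPM with nintedanib, 42.1 and 54.2 CPM in OHSS and 40.9 and 50.01 CPM in COH. Dnaja1, a cytosolic HSP40, stood at 299 and 447 CPM with nintedanib, 273 and 312 CPM in OHSS and 303 and 349 CPM in COH. Both genes had the second nintedanib library on top, and both were chosen after their values were seen. Hsp90ab1, the constitutive cytosolic HSP90, had 1776 and 2156 CPM with nintedanib, 1752 and 1793 CPM in OHSS and 2049 and 2158 CPM in COH. For OHSS against COH 12 of the 15 genes had lower means, with a median log2 fold change of -0.12, and for OHSS with nintedanib against OHSS 14 of 15 had higher means, with a median of 0.25. Without nintedanib replicate 2 that count was 10 of 15 with a median of 0.04. For OHSS with nintedanib against COH 13 of 15 were higher (median 0.11), or 6 of 15 (median -0.12) without nintedanib replicate 2 and 9 of 15 (median 0.065) without COH replicate 1. The OHSS median against COH was -0.049 without COH replicate 2. edgeR called 0 of the 15 in each comparison, as did DESeq2. At an unadjusted p under 0.05 edgeR had 1, 1 and 0 of them, against 8.82, 7.42 and 9.7% of all genes. Of all genes tested 49.6, 51.5 and 49.9% had a fold change above 0 in these comparisons. The same shares apply to the lists that follow.

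The genes of that list at an unadjusted p under 0.05 by edgeR were Dnajb4, an HSP40, and Serpinh1, a collagen chaperone of the ER. Dnajb4 had 66.6 and 27.1 CPM in OHSS, against 19.8 and 20.8 CPM in COH, which gave 1.20 on the log2 scale (SE 0.410, edgeR adjusted p = 0.542), and the first OHSS library alone was far from the others. Serpinh1 had 239 and 229.9 CPM with nintedanib, against 179 and 196 CPM in OHSS, which gave 0.32 on the log2 scale (SE 0.119, edgeR adjusted p = 0.654). The factor Hsf1 itself differed little, at 48.0 and 53.7 CPM with nintedanib, 50.3 and 47.8 CPM in OHSS and 47.3 and 56.2 CPM in COH. Among 7 heat shock factors and HSP70 cofactors, Stub1, a ubiquitin ligase bound to HSP70, had the smallest p, with a log2 difference of -0.28 for OHSS with nintedanib against COH (SE 0.111, edgeR adjusted p = 0.513). Of these 7 genes 6 had lower means in OHSS than in COH, 4 had higher means with nintedanib than in OHSS, and 1 had a higher mean with nintedanib than in COH. The last count was 3 without nintedanib replicate 1, and 4 were lower in OHSS than in COH without COH replicate 2.

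The 8 subunits of the CCT chaperonin, a ring that folds actin and tubulin, had a common direction in OHSS against COH. All 8 had lower levels in both OHSS libraries than in both COH libraries, against 22.9% of all genes, with a median log2 fold change of -0.27 that ran from -0.27 to -0.24 with each library left out. Cct7 had 162 and 155 CPM in OHSS, against 189 and 196 CPM in COH, which gave -0.28 on the log2 scale (edgeR adjusted p = 0.542). Tcp1 and Cct8 had log2 fold changes of -0.26 and -0.28. At an unadjusted p under 0.05 edgeR had 5 of the 8, against 8.82% of all genes, and it called 0 of the 8, as did DESeq2. With nintedanib 7 of 8 had higher means than in OHSS (median 0.15) and 8 of 8 lower means than in COH (median -0.10). Against COH 5 of 8 were lower (median -0.053) without nintedanib replicate 1, and the median was -0.16 without nintedanib replicate 2. Subunits of 1 complex often vary together, so 8 genes are not 8 separate observations.

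Of 8 other HSP70 family genes, 3 had higher means in OHSS than in COH, 7 had higher means with nintedanib than in OHSS and 5 had higher means with nintedanib than in COH. Without nintedanib replicate 1 the counts with nintedanib were 4 of 8 against OHSS (median 0.017, or 0.13 with all libraries) and 4 of 8 against COH (median -0.015). In OHSS against COH 5 of 8 were higher without OHSS replicate 2 (median 0.021). Hspa4, an HSP110 relative of Hsph1, differed by little, at 267 and 265 CPM with nintedanib, 246 and 241 CPM in OHSS and 240 and 238 CPM in COH, with both nintedanib libraries on top. Hspa12b, a distant HSP70 relative of endothelial cells, had 18.6 and 15.9 CPM in OHSS, against 24.1 and 23.0 CPM in COH, which gave -0.45 on the log2 scale (edgeR adjusted p = 0.542). Of 7 mitochondrial chaperones and proteases 3 had higher means in OHSS than in COH, 4 with nintedanib than in OHSS and 2 with nintedanib than in COH. Against OHSS 2 of 7 were higher with nintedanib without nintedanib replicate 1 (median -0.15) and 5 of 7 without nintedanib replicate 2 (median 0.19). Against COH these were 2 of 7 (median -0.29) and 4 of 7 (median 0.015). Hspd1, the mitochondrial HSP60, had 999 and 687 CPM with nintedanib, 1005 and 678 CPM in OHSS and 673 and 603 CPM in COH. The first library of both OHSS groups thus stood high in Hspd1, unlike in the cytosolic members. edgeR and DESeq2 called 0 genes of these 2 lists in each comparison. At an unadjusted p under 0.05 edgeR had 1 HSP70 family gene in OHSS against COH, where 8.82% of all genes were. It also had 1 mitochondrial gene with nintedanib against COH, where 9.7% of all genes were.

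ER chaperones and folding enzymes outside the 4 members, 14 genes in all, had lower means in OHSS than in COH for 10 of 14 (median -0.13) and higher means with nintedanib than in OHSS for 11 of 14 (median 0.08). With nintedanib against COH 6 of 14 were higher (median -0.07). Without nintedanib replicate 2, 6 of 14 were higher with nintedanib than in OHSS (median -0.015) and 5 of 14 than in COH (median -0.17). Against COH 9 of 14 were higher without nintedanib replicate 1 (median 0.033) or without COH replicate 2 (median 0.026), and the OHSS median against COH was -0.21 without COH replicate 1 and -0.020 without COH replicate 2. In the second nintedanib library 6 of the 14 had their highest level, against 4193 of all 19027 genes tested, and 6 did in the second COH library. Pdia6, a disulfide isomerase like Pdia4, had 241 and 228 CPM in OHSS, against 311 and 335 CPM in COH, which gave -0.46 on the log2 scale (edgeR adjusted p = 0.542). With nintedanib Pdia6 had 250 and 339 CPM. Calr, the lectin chaperone calreticulin, had 1362 and 1224 CPM with nintedanib, 1463 and 1475 CPM in OHSS and 1494 and 1706 CPM in COH. Hyou1, an HSP110 of the ER, had 118 and 139.8 CPM with nintedanib, 127 and 112 CPM in OHSS and 112 and 100.5 CPM in COH. Calr was thus lowest and Hyou1 highest in the nintedanib libraries taken by group mean, so these 2 genes had no common direction. edgeR and DESeq2 called 0 of the 14. At an unadjusted p under 0.05 edgeR had 1 of them, Pdia6 in OHSS against COH, where 8.82% of all genes were.

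Among the sensors of the unfolded protein response Ern1, which encodes IRE1, had the largest fold change in OHSS against COH. Ern1 had 223 and 135 CPM in OHSS, against 117 and 114 CPM in COH, with no overlap, which gave 0.63 on the log2 scale (SE 0.261, edgeR adjusted p = 0.579). With nintedanib it had 173 and 135 CPM. The first OHSS library was the highest. Xbp1 had 163 and 220.3 CPM with nintedanib, 186 and 182 CPM in OHSS and 179.9 and 246 CPM in COH. Atf6, a sensor that is cut to release a transcription factor, had 92.5 and 91.0 CPM in OHSS, against 74.5 and 75.4 CPM in COH, which gave 0.29 on the log2 scale (edgeR adjusted p = 0.539). Edem1, which takes misfolded glycoproteins out of the folding cycle, had 131 and 121 CPM in OHSS, against 98.6 and 94.5 CPM in COH. Its log2 fold change of 0.39 was not called by edgeR (adjusted p = 0.522), while DESeq2 called it (adjusted p = 0.0233). Of 7 sensor genes 4 were higher in OHSS than in COH (median 0.06), 3 higher with nintedanib than in OHSS (median -0.13) and 5 higher with nintedanib than in COH (median 0.04). Of 8 genes of ER-associated degradation these counts were 5, 3 and 4, with medians of 0.05, -0.02 and 0.02. The sensor median turned to -0.019 in OHSS against COH without OHSS replicate 2 and to 0.031 with nintedanib against OHSS without OHSS replicate 1. The degradation median turned to -0.014 with nintedanib against COH without nintedanib replicate 2 and to -0.028 without COH replicate 1. edgeR called 0 genes of both lists in each comparison. At an unadjusted p under 0.05 it had Atf6 and Edem1, both in OHSS against COH, where 8.82% of all genes were.

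Genes of the PERK, ATF4 and CHOP branch had higher means with nintedanib for 11 of 14 genes against OHSS (median 0.14) and 12 of 14 against COH (median 0.25), and for 9 of 14 in OHSS against COH (median 0.03). The counts against and in OHSS depended on its 2 libraries. Against OHSS 7 of 14 were higher with nintedanib without OHSS replicate 2 (median -0.018) and 12 of 14 without OHSS replicate 1 (median 0.43). In OHSS against COH 5 of 14 were higher without OHSS replicate 1 (median -0.20) and 11 of 14 without OHSS replicate 2 (median 0.18). edgeR called 0 of them in each comparison. At an unadjusted p under 0.05 it had 2 with nintedanib against OHSS, 1 with nintedanib against COH and 0 in OHSS against COH. Of all genes 7.42, 9.7 and 8.82% had such a p, in that order. Psat1, an enzyme of serine synthesis, had 40.8 and 26.3 CPM with nintedanib, 18.5 and 13.0 CPM in OHSS and 20.5 and 17.2 CPM in COH. Its log2 fold change with nintedanib was 1.09 against OHSS (edgeR adjusted p = 0.653) and 0.83 against COH (edgeR adjusted p = 0.494), and both nintedanib libraries were above the other 4. Ddit4, an inhibitor of mTORC1 signalling, was the other gene at an unadjusted p under 0.05 against OHSS. It had 69.4 and 58.7 CPM with nintedanib, 85.8 and 75.2 CPM in OHSS and 71.6 and 73.1 CPM in COH, lower in both nintedanib libraries (log2 fold change against OHSS -0.33, SE 0.131, edgeR adjusted p = 0.672). Atf4 itself had 217 and 225 CPM with nintedanib, 239.7 and 195 CPM in OHSS and 219 and 210.0 CPM in COH. Atf3 had 2.95 and 8.20 CPM with nintedanib, 4.73 and 7.85 CPM in OHSS and 5.31 and 6.02 CPM in COH. Trib3, a pseudokinase that restrains ATF4, had 9.19 and 4.05 CPM with nintedanib, 7.68 and 4.22 CPM in OHSS and 7.03 and 5.92 CPM in COH. In these 3 genes the groups overlapped.

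Immediate early genes, which respond within minutes to growth factors and to tissue handling, had lower means in OHSS than in COH for all 10 genes listed. Fos had 58.2 and 228 CPM with nintedanib, 29.5 and 40.8 CPM in OHSS and 116 and 179.9 CPM in COH. Like Hspa1a and Hspa1b it was low in both OHSS libraries and highest in the second nintedanib library. Jun and Fosb also had their highest level there, at 509 and 71.0 CPM, against 205 and 21.96 CPM in the first nintedanib library. Of the 10 genes on this list 3 were highest in the second nintedanib library, against 4193 of all 19027 genes tested, and 4 in the second COH library. The median log2 fold change in OHSS against COH was -0.67. Against OHSS 6 of 10 were higher with nintedanib (median 0.20) and against COH 2 of 10 (median -0.33), or 4 of 10 (median -0.18) and 0 of 10 (median -0.84) without nintedanib replicate 2. Without nintedanib replicate 1 they were 9 of 10 (median 0.46) and 5 of 10 (median 0.011). edgeR called 0 in each comparison, while 3, 3 and 1 of the 10 had an unadjusted p under 0.05, against 8.82, 7.42 and 9.7% of all genes. By DESeq2, which called 1.89 and 1.17% of all genes in OHSS against COH and with nintedanib against OHSS, Fos, Fosb and Ier2 were called in OHSS against COH, and Fosb was called with nintedanib against OHSS. Their part in the levels of the heat shock genes was not tested.

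Markers of other cells also differed between libraries. The 5 endothelial markers summed to 514 and 535 CPM with nintedanib, 376 and 427 CPM in OHSS and 485 and 488 CPM in COH. The sum was lowest in both OHSS libraries and highest in the second nintedanib library. Only Cdh5 and Tie1 were themselves highest there. Pecam1 was highest in the second OHSS library, Kdr in the first nintedanib library and Cldn5 in COH. The 6 theca and luteal markers summed to 24265 and 19822 CPM with nintedanib, 26655 and 25110.4 CPM in OHSS and 21287 and 23099.9 CPM in COH. The 6 oocyte markers summed to 128 and 235 CPM with nintedanib, 137 and 164 CPM in OHSS and 244 and 172 CPM in COH. The 5 erythroid markers summed to 156 and 84.0 CPM with nintedanib, 60.4 and 173 CPM in OHSS and 219 and 218 CPM in COH, and the 5 macrophage markers to 231 and 227 CPM with nintedanib, 357 and 217 CPM in OHSS and 243 and 265 CPM in COH. By these sums the second nintedanib library was the higher of its pair for oocyte and the lower for theca, luteal and erythroid markers. Star and Ptgfr of the theca and luteal list went the other way, at 1484 and 1968 CPM and at 688 and 872 CPM with nintedanib. The part of cell makeup in the heat shock levels was not tested.

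The genes whose log2 CPM was most like the mean of the 6 cytosolic members over the 6 libraries, out of 11509 others with a mean of at least 5 CPM and no predicted, clone or pseudogene name, were mt-Tn, Frem1, Mkrn1, Paics and Zfp748, with a Pearson r of 0.98 to 0.99. Frem1, an extracellular matrix protein, had 44.1 and 65.7 CPM with nintedanib, 41.7 and 44.8 CPM in OHSS and 50.1 and 56.0 CPM in COH. Its levels followed the order of the libraries for Hspa1a over a far narrower range. Among the members themselves r with that mean was 0.93 to 0.996 for 5 and 0.56 for Hsp90aa1. For the 4 ER members the nearest genes were Mier3, Tcea1, Napb, Pno1 and Gps2, with r of 0.97 to 0.99, while the members had r of 0.36 for Ddit3 to 0.92 for Hspa5 with their own mean. With 6 libraries and this many genes high values are common, and no test was made of them.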

How the data were processed

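Raw whole-number counts per Ensembl gene ID were deposited by the authors for 6 libraries in 1 table, beside gene symbols. Among tools, the submitters' processing notes list StringTie 1.3.3b, HISAT2 2.1.0 and Trimmomatic 0.36, and as build mm8, with no roles. No source used here gives the counting program, the annotation release, the strand setting or the handling of multiply mapped reads. The table holds no coordinates, and 51633 of its 51826 IDs are in GENCODE M21 (GRCm38), which gave exon lengths, overlaps and coding sequences. Promoter windows came from RefSeq (GRCm38.p6).

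Groups and replicate numbers came from the sample titles. Genes were filtered with filterByExpr (19027 left), scaled with TMM and tested with edgeR 4.0.16 (R 4.3.3), whose quasi-likelihood F test is two-sided, with all 3 groups in 1 model of 3 residual and 2.41 prior degrees of freedom. Benjamini-Hochberg adjustment ran over all genes tested, with calls below 0.05. The standard error was derived from the F statistic. With 2 libraries against 2, the smallest two-sided p of an exact permutation test is 0.333, and no such test was run. Levels are CPM, and log2 values per library use a prior count of 2. Pairs of libraries within a group differed well beyond counting error.

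The members, the 10 pathway lists with 98 genes, the 8 marker lists, the naming rule and the alternatives were chosen with earlier results of these data known. The rule names the 10 members, up to 3 genes of each list with the smallest p in a comparison at a mean of at least 1 CPM, a few fixed genes, and the 5 genes most like each subgroup at a mean of at least 5 CPM, leaving out members and predicted, clone or pseudogene names. Not all genes it allows are named. Alternatives were other scalings, no filter or a stricter one (1 CPM in 4 libraries), DESeq2 1.42.0, limma 3.58.1 (voom), the replicate number as a block, each pair of groups fitted alone, and each library left out in turn. The deposited read summaries per library were not used.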

Additional observations from a re-analysis of the deposited data

How the results depend on the processing

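None of the 10 members was called in any comparison under any alternative run, and the smallest adjusted p was 0.0975, for Hspa1a with nintedanib against OHSS without nintedanib replicate 1. Scaling, filter, test, replicate block and a fit of only the groups compared left the direction of all 30 fold changes as it was. Leaving out a library turned the direction of some. With 1 library left out, the log2 fold changes ran from -0.081 to 0.38 for Hsp90aa1, -0.44 to 1.12 for Hspa5 and -0.17 to 0.45 for Ddit3 in OHSS against COH. For nintedanib against OHSS they ran from -0.15 to 0.81 for Hsph1, -0.11 to 0.46 for Dnajb1, -0.14 to 0.36 for Hspa5, -0.034 to 1.05 for Pdia4 and -0.61 to 0.0065 for Ddit3. For nintedanib against COH they ran from -1.29 to 1.43 for Hspa1a, -1.16 to 1.20 for Hspa1b, -0.30 to 0.30 for Hspa8, -0.24 to 0.72 for Hsph1, -0.39 to 0.18 for Dnajb1, -0.31 to 1.24 for Hspa5, -0.057 to 0.13 for Hsp90b1 and -0.38 to 0.71 for Pdia4. Over all genes, edgeR called 2, 1 and 5 in OHSS against COH, nintedanib against OHSS and nintedanib against COH. In that order DESeq2 called 360, 223 and 449, limma voom 0, 1 and 2, the replicate block 1, 0 and 2, the fit of only the groups compared 0, 0 and 2 and the fit with no filter 4, 2 and 6. With 1 library left out the counts ran from 0 to 2, 0 to 30 and 0 to 53, with 839 to 2560 genes at an unadjusted p under 0.05. In both nintedanib comparisons the highest count came without nintedanib replicate 1, and in OHSS against COH without OHSS replicate 1. Where a count was 0, limma voom had 1585 genes at an unadjusted p under 0.05, the replicate block 1242 and the fit of only the groups compared 1864 and 1023. Same-numbered libraries of different groups did not deviate together from their group means (r of -0.0023 to 0.048 over 19027 genes). This does not settle whether the numbers pair the samples. For Hspa1a replicate 2 was higher in all 3 groups, by log2 values of 2.72 with nintedanib, 0.50 in OHSS and 0.53 in COH. Hspa1b, Hspa8, Hsph1, Dnajb1, Hspa5 and Pdia4 did alike, but not Hsp90aa1, Hsp90b1 and Ddit3. The share of all genes with this order was not counted. The replicate block changed no call among the members. In OHSS against COH it moved the SE of Hspa1a from 0.829 to 0.618 and that of Hsp90aa1 from 0.245 to 0.271. The cause of the differences between fits was not tested. The members had 590 to 58026 counts per library, and 2 libraries a group limit what can be called.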
